A study of Mus musculus with 20 samples.

Results

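The genes described here carry pyruvate into the mitochondrion's central pathway and around the tricarboxylic acid (TCA) cycle. They were chosen by gene name, and all 9 were found among the 33581 genes of each deposited table. Pyruvate carboxylase (Pcx) makes oxaloacetate from pyruvate. Pdha1, Pdhb and Dlat are subunits of the pyruvate dehydrogenase complex, which makes acetyl-CoA. Citrate synthase (Cs), isocitrate dehydrogenase 3 alpha (Idh3a), oxoglutarate dehydrogenase (Ogdh), fumarate hydratase (Fh1) and malate dehydrogenase 2 (Mdh2) are enzymes of the cycle. In a differentiating fat cell the pathway does more than burn fuel. Citrate formed from acetyl-CoA and oxaloacetate is exported to the cytosol, where ATP citrate lyase (Acly) splits it for fatty acid synthesis, and pyruvate carboxylase refills the oxaloacetate that leaves as citrate.

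RNA-seq had been carried out on the mouse preadipocyte line 3T3-L1, whose cells turn into lipid-storing adipocytes after hormonal induction, to find genes that depend on the Wnt-pathway transcription factor Tcf7l2 during adipogenesis. The knockdown cells carried a lentiviral SMARTvector hairpin against Tcf7l2 and the control cells a scrambled hairpin, and differentiating cells of each kind were taken on days 0, 2, 4, 6 and 8. Each of the 10 groups has 2 libraries, 20 in all. Both arms shared infection at passage 2, puromycin selection into a mixed population, and a differentiation medium to which a thiazolidinedione was not routinely added. The labels describe 1 hairpin for these libraries and do not call the 2 libraries of a group separate cultures. The p-values below therefore rest on a spread that may be technical, and an effect of the hairpin cannot be told apart from loss of Tcf7l2.

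Library totals were 20153362 to 33973608 reads, and levels are given as recovered reads scaled by the library total (RPM), library 1 before library 2. Tcf7l2 had 13.9 and 23.4 RPM in knockdown libraries at day 0, against 41.9 and 59.0 RPM in scrambled libraries. At day 8 it had 19.5 and 16.5 RPM in knockdown libraries and 52.8 and 54.1 RPM in scrambled libraries, and the groups did not overlap on any of the 5 days. The markers of the 2 labelled cell states were present. The sum of 10 adipocyte markers ran from 359 to 5271 RPM in knockdown libraries and from 606 to 28001 RPM in scrambled libraries, and the sum of 10 fibroblast and preadipocyte markers was at least 14199 RPM in every library. Of the markers of other cell types, 1 of 8 for macrophages (Emr1), 1 of 5 for epithelium (Epcam), 2 of 6 for muscle (Myod1 and Ckm) and 0 of 6 for endothelium were at 0 in all libraries. The highest were Itgam of the macrophage list, at up to 18.9 RPM, and Des of the muscle list, at up to 38.8 RPM. The summed lists ran from 18.5 to 39.3 RPM for macrophages, from 2.06 to 4.76 RPM for endothelium, from 0 to 1.77 RPM for epithelium and from 28.4 to 63.7 RPM for muscle over all libraries. Late scrambled libraries differed from each other. The spread of the difference between the 2 libraries of a group was taken as its standard deviation (SD) across genes. At day 8 the SD was 0.263 log2 in knockdown cells and 0.598 log2 in scrambled cells. It had been 0.321 and 0.299 at day 0, and 0.189 and 0.199 at day 2. Of the late scrambled libraries, those numbered 2 had more adipocyte marker RNA.

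The sequences upstream of Pcx are shown because this gene had the largest difference between the arms and has 2 annotated starts whose upstream stretches differ in CpG content. Gene positions are given in GRCm38, and Pcx (ENSMUSG00000024892.8, chr19:4510472-4621752, plus strand) spans both starts. The sequences are RefSeq's for the assembly GRCm38.p6, 250 bases that end just before each start, with CpG dinucleotides in capitals. The first, at chr19:4510222-4510471, holds 16 CpGs at a GC content of 60.8%, and the second, at chr19:4594069-4594318, holds 4 CpGs at 58%.
Pcx upstream of the first start: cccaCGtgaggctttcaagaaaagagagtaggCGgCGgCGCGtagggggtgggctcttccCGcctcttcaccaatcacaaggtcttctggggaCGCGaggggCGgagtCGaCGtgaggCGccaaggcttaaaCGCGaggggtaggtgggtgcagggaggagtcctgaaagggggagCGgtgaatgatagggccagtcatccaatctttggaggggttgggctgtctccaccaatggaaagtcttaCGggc
Pcx upstream of the second start: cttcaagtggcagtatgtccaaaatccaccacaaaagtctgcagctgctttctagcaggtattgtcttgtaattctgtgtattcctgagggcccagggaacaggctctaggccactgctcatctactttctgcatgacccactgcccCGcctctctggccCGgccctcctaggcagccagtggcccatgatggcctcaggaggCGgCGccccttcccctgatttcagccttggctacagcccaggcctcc
Reads had been counted per gene, so the RNA of the 2 starts cannot be told apart. A search for 5 motifs of factors linked to mitochondrial or adipocyte genes was run on both strands of windows of 300 bases (250 before and 50 after a start). RefSeq windows were found for 8 of the 9 genes, 14 windows in all, with none for Idh3a. The NRF1 letters GCGCANGCG were found in the windows of 1 gene, Ogdh, and in 6.25% of all 32851 windows. The ERR letters TCAAGGTCA (0.423% of all windows), the GABPA letters CCGGAAGT (3.89%), the TCF/LEF letters CTTTGAT (3.73%) and the SREBP letters TCACNCCAC (1.24%) were found in none of the 14. The Ogdh match lay at chr11:6292543-6292551 on the plus strand, in 2 overlapping windows, and overlapped no other match. It is given in capitals within the stretch chr11:6292533-6292561.
Ogdh NRF1 match: taggtgttgtGCGCATGCGtaactcaact

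Pyruvate carboxylase had the largest difference of the set. Averaged over the days it was lower in knockdown cells by 1.58 on the log2 scale, and it was the only one of the 9 genes with every knockdown library below every scrambled library on all 5 days, which held for 2.35% of the 16497 genes tested. In knockdown libraries Pcx had 38.9 and 44.5 RPM on day 0, 542 and 542 RPM on day 2, 295 and 507 RPM on day 4, 308 and 524 RPM on day 6, and 234 and 379.5 RPM on day 8. In scrambled libraries it had 66.3 and 75.2 RPM on day 0, 1081 and 1310.2 RPM on day 2, 794 and 1895 RPM on day 4, 1172 and 2386 RPM on day 6, and 805 and 2611 RPM on day 8. On day 0, before induction, both knockdown libraries were already below both scrambled ones, which held for 14.6% of all tested genes that day. The day-0 difference of Pcx (-0.73, standard error 0.57) was not called by limma. Pcx in knockdown cells was at 58.9% of the scrambled mean on day 0, 45.4% on day 2, 29.8% on day 4, 23.4% on day 6 and 18.0% on day 8, from group means of 2 libraries. An alternative added after the data were seen set the mean of both knockdown libraries against scrambled library 1 alone. It gave 62.9%, 50.2%, 50.5%, 35.5% and 38.1% on these days. Between libraries numbered 1 the shares were 58.7%, 50.1%, 37.1%, 26.3% and 29.1%. Between libraries numbered 2 they were 59.1%, 41.4%, 26.7%, 22.0% and 14.5%.

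**Figure D1:**
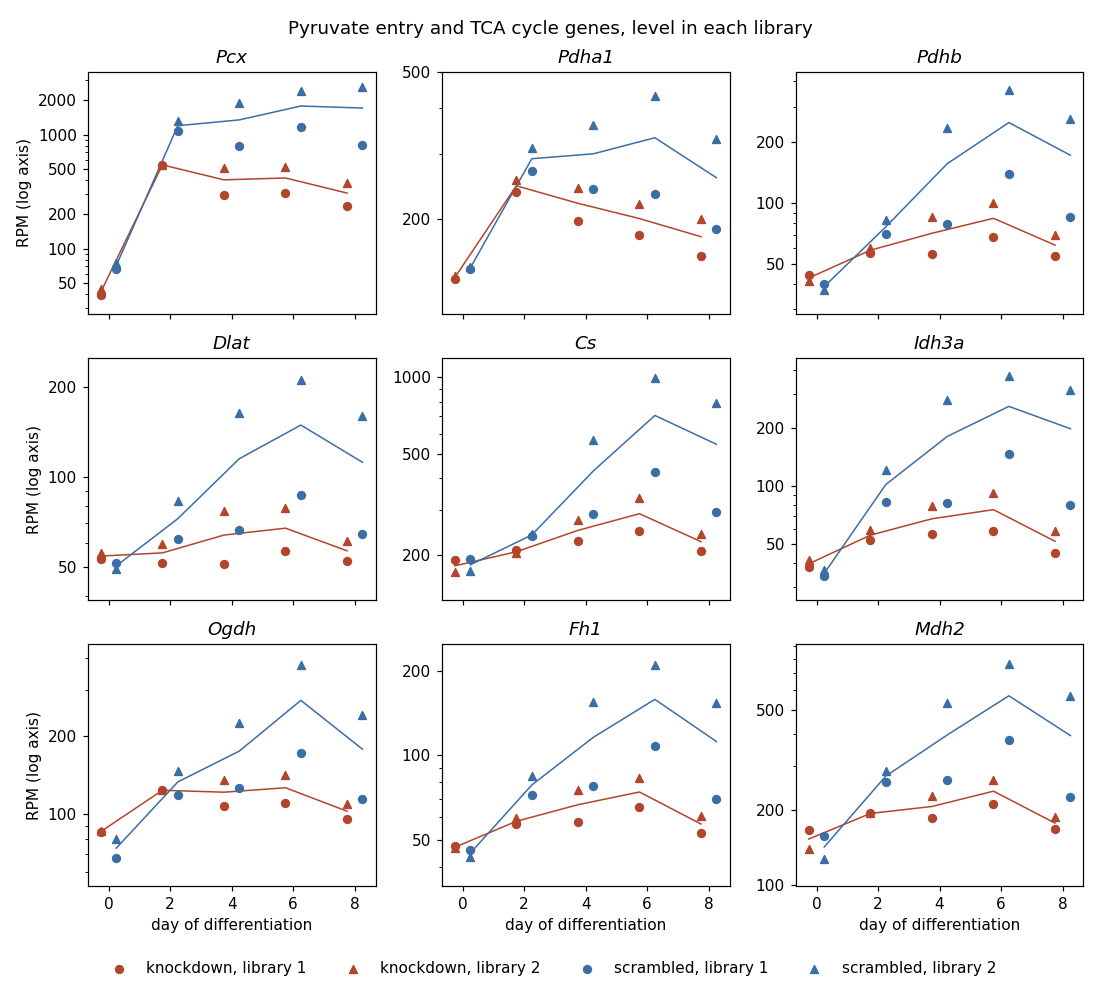
Level of each of the 9 genes in every library, in RPM on a log axis, against the day of differentiation; points are libraries (circles library 1, triangles library 2), lines join group means of 2 libraries, and knockdown libraries are drawn to the left of scrambled ones. Pcx is lower in knockdown cells from the start and higher in both arms by day 2, while the other 8 genes have knockdown means of 94.3% to 116% of the scrambled mean on day 0 and lower ones later, with scrambled library 2 highest from day 4 on.

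The differences were tested with limma on the deposited variance-stabilised log2 values, with 1 spread per gene shared by all groups, knockdown minus scrambled, with the standard error (SE) and p-values adjusted over all tested genes and called at 0.05. At single days Pcx was called at day 8 alone (-2.32, SE 0.57, adjusted p = 0.0340). The shared spread gave Pcx the same SE at day 2 (-1.11, SE 0.57). Scrambled libraries were closer to each other at day 2 (SD 0.199) than at day 8 (SD 0.598). The SE may thus be too large for day 2 and too small for day 8. No call at day 2 therefore does not show that the arms were alike. The authors' DESeq2 test of day 2 gave Pcx -1.02 (SE 0.15, adjusted p = 4.05e-10). The day-8 difference was -1.40 with an adjusted p of 0.346 without scrambled library 2 of that day, and the call was also lost without either knockdown library of that day (adjusted p = 0.188 and 0.104) and, narrowly, without any 1 of the 4 libraries of day 2 (adjusted p from 0.0501 to 0.0513). Same-numbered libraries of the 2 arms deviated together, and a fit blocked on that number called Pcx at days 4, 6 and 8 (limma adjusted p = 0.0128, 0.00425 and 0.00245). That fit gives a library number the same offset in both arms. At day 8 library 2 had 3.24 times the Pcx level of library 1 in scrambled cells and 1.62 times in knockdown cells. The average over the days was called in 20 of 20 fits that left out 1 library, and it was -1.11 (limma adjusted p = 9.92e-05) without the 3 scrambled libraries numbered 2 of days 4, 6 and 8. In bulk RNA, fewer cells that express a gene and less of its RNA per cell cannot be told apart.

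Mean Pcx levels in both arms were higher on every later day than on day 0. Days 4 and 8 were tested against day 0 with limma voom on reads recovered from the deposited values, and day 2 was not. In knockdown cells the mean was highest at day 2. In knockdown cells the mean level at day 2 was 13 times that at day 0, and at day 8 it was 7.36 times. In scrambled cells it was 16.9 times at day 2 and 24.1 times at day 8. The rise over day 0 was called at day 4 (log2 3.29, SE 0.50, adjusted p = 0.00300) and at day 8 (2.85, SE 0.50, adjusted p = 0.020) in knockdown cells. It was called at day 4 (4.18, SE 0.53, adjusted p = 0.000534) and at day 8 (4.40, SE 0.53, adjusted p = 0.00112) in scrambled cells. The day-8 call in knockdown cells was lost without a filter on low counts (adjusted p = 0.0573) and without any 1 of the 4 knockdown libraries of days 0 and 8 (adjusted p from 0.102 to 0.211). The change of the knockdown difference between day 8 and day 0, tested directly, was -1.55 (SE 0.73, adjusted p = 0.835) and was not called.

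Counts over the set follow the same fits, so the limit of the shared spread holds for the counts of days 2 and 8 as well. At day 8, 1 of the 9 genes was called, against 5.75% of all tested genes, and at days 0, 2, 4 and 6 none was, against 0.224%, 0.267%, 1.61% and 4.12%. At an unadjusted p under 0.05 the counts by limma were 0, 0, 1, 7 and 6 at days 0 to 8, where 6.41%, 5.02%, 10.2%, 24% and 23.4% of all genes passed. With the replicate block, 1 gene was lower at day 4 (Pcx), against 1.07% of all genes called lower in that fit, and 8 genes were lower at day 6, all but Dlat, against 8.7%. At day 8, 4 were lower (Pcx, Pdhb, Cs and Idh3a), against 8.87%. For the average over the days 7 of 9 were lower, against 13.2% of all genes called lower and 25.4% called in either direction. The median average difference of the 9 genes was -0.66, and that of all tested genes was -0.0028. With the block 8 of 9 were lower on average (18.8% of all genes), with Dlat added at an adjusted p of 0.0196 by limma.

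These counts depended on the late libraries numbered 2 and on day 8. Without both libraries numbered 2 of days 4, 6 and 8, 6 of 9 genes were lower, against 8.92% of all genes. Without only the 3 scrambled ones, an alternative added after the data were seen, 5 of 9 were lower, against 10.5%. Without the 4 libraries of day 8, also added then, 1 of 9 was lower, which was Pcx, against 7% of all genes. Between 3 and 8 genes were called when 1 library was left out. The count was 3 or 4 without scrambled library 2 of day 4, 6 or 8, knockdown library 1 of day 4, 6 or 8, or knockdown library 2 of day 6 or 8.

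**Figure D2:**
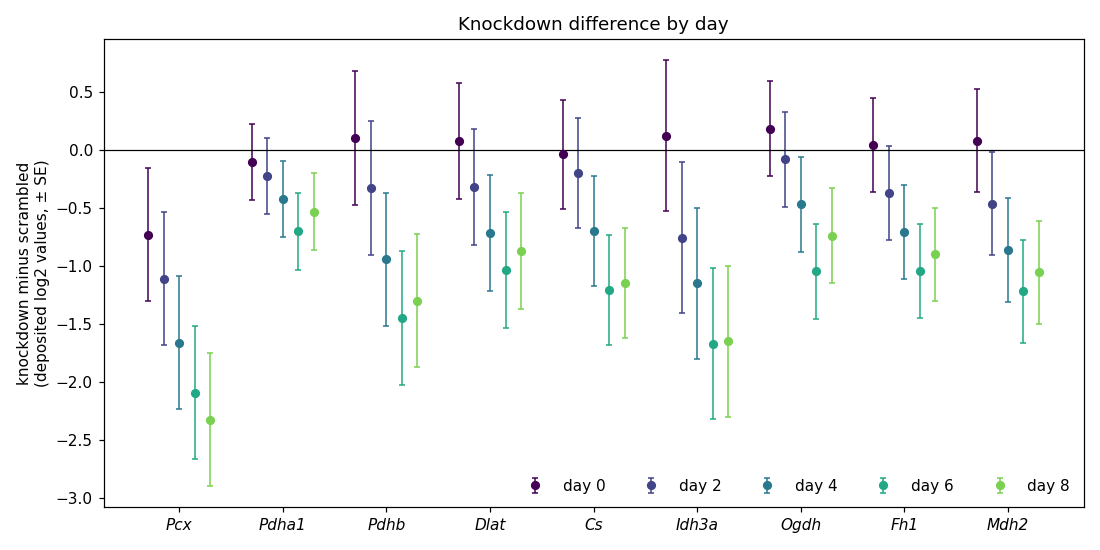
Knockdown minus scrambled difference of each gene on each day, in deposited log2 values, with bars of 1 SE from the fit over all 20 libraries. Pcx lies below 0 on every day, and the other 8 genes lie near 0 at day 0 (-0.10 to 0.18) and between -0.53 and -1.64 at day 8.

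In the average, where 13.2% of all tested genes were called lower, so were 2 of the 3 subunits of the pyruvate dehydrogenase complex. Pdha1 and Pdhb encode the alpha and beta chains of its first enzyme, E1, and Dlat encodes the E2 core that passes the acetyl group to coenzyme A. Averaged over the days Pdhb was lower in knockdown cells by 0.78 (SE 0.27, limma adjusted p = 0.0413) and Pdha1 by 0.39 (SE 0.14, adjusted p = 0.0456). The average of Dlat was -0.57 (SE 0.22, adjusted p = 0.0652), not called. Without the 3 late scrambled libraries numbered 2, the averages of Pdhb, Pdha1 and Dlat were -0.27, -0.14 and -0.15, none of them called (limma adjusted p = 0.112, 0.150 and 0.295).

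Pdhb, the E1 beta chain (ENSMUSG00000021748.8, chr14:8165996-8173025, minus strand), had 44.3 and 41.2 RPM on day 0, 57.0 and 60.2 RPM on day 2, 56.2 and 86.0 RPM on day 4, 67.9 and 101 RPM on day 6, and 54.7 and 69.5 RPM on day 8 in knockdown libraries. In scrambled libraries it had 40.0 and 37.4 RPM on day 0, 70.6 and 82.4 RPM on day 2, 78.8 and 235 RPM on day 4, 139 and 362 RPM on day 6, and 85.7 and 259.6 RPM on day 8. Knockdown libraries were above scrambled ones at day 0, below them at days 2, 6 and 8, and overlapped them at day 4. Pdha1, the E1 alpha chain (ENSMUSG00000031299.9, chrX:160122209-160138413, minus strand), had 138 and 140.4 RPM on day 0, 237 and 256 RPM on day 2, 199 and 244 RPM on day 4, 182 and 220.4 RPM on day 6, and 159 and 200.1 RPM on day 8 in knockdown libraries. In scrambled libraries Pdha1 had 147 and 148 RPM on day 0, 271 and 313 RPM on day 2, 241 and 360.2 RPM on day 4, 235 and 430.3 RPM on day 6, and 188 and 329.8 RPM on day 8. Its groups overlapped at days 4 and 8 and were apart, lower in knockdown cells, at days 0, 2 and 6. Pdha1 shares 603 of its 3734 annotated exon bases with Map3k15 on the opposite strand, a gene of at most 1.56 RPM here, and strand was not stated for the counting.

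Dlat (ENSMUSG00000000168.3, chr9:50634633-50659780, minus strand) had 53.2 and 55.8 RPM on day 0, 51.8 and 59.9 RPM on day 2, 51.1 and 76.9 RPM on day 4, 56.4 and 78.5 RPM on day 6, and 52.4 and 61.1 RPM on day 8 in knockdown libraries. In scrambled libraries Dlat had 51.9 and 49.2 RPM on day 0, 62.2 and 83.0 RPM on day 2, 66.6 and 163 RPM on day 4, 87.3 and 210.3 RPM on day 6, and 64.4 and 159 RPM on day 8. Its groups overlapped at day 4, and knockdown libraries were above scrambled ones at day 0 and below them at days 2, 6 and 8. The E2 gene was the flattest of the set in knockdown cells, with means between 1.02 and 1.24 times that of day 0, while its scrambled means reached 2.95 times at day 6.

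Because each library counts all genes together, the ratio of reads between partners of one complex does not depend on library size. The Pdhb to Pdha1 ratio was 0.320 and 0.293 in knockdown libraries and 0.272 and 0.252 in scrambled libraries at day 0. At day 6 it was 0.374 and 0.457 in knockdown libraries, against 0.593 and 0.841 in scrambled libraries. At day 8 it was 0.344 and 0.348 in knockdown libraries, against 0.454 and 0.787 in scrambled libraries. The beta chain had a higher ratio to the alpha chain at days 6 and 8 than at day 0 in both arms, with both scrambled libraries above both knockdown libraries. With 2 libraries a group these ratios were not tested, and the ratio itself also depends on transcript length.

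The Pcx to Pdha1 ratio sets reads of the gene that makes oxaloacetate from pyruvate beside reads of the gene that starts its turn into acetyl-CoA. It was 0.281 and 0.317 in knockdown libraries and 0.451 and 0.507 in scrambled libraries at day 0. By day 2 it was 2.29 and 2.12 in knockdown libraries, against 3.99 and 4.19 in scrambled libraries. At day 8 it was 1.47 and 1.90 in knockdown libraries, against 4.27 and 7.92 in scrambled libraries. The 2 arms did not overlap in this ratio on any of the days given here.

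**Figure D3:**
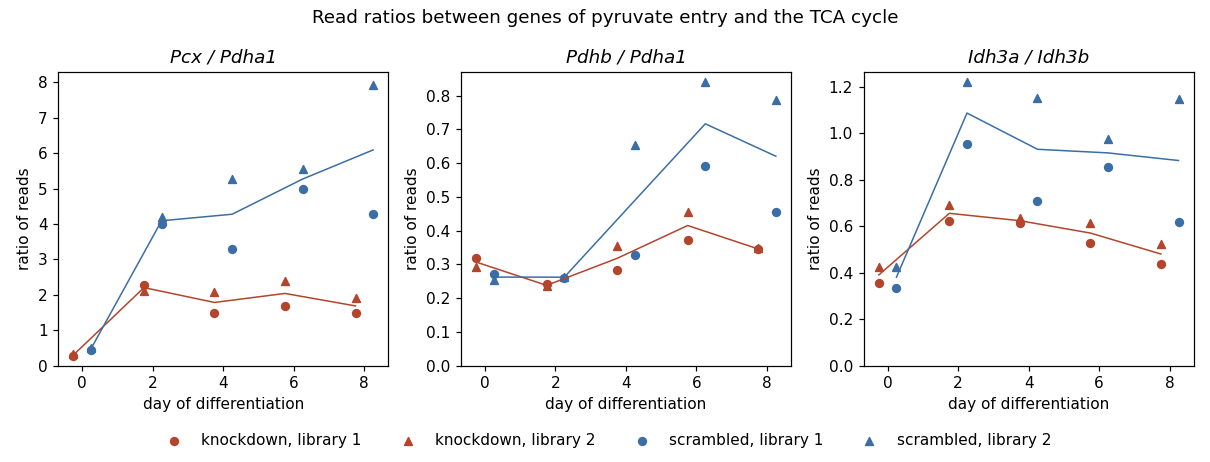
Ratio of reads between gene pairs in each library (Pcx over Pdha1, Pdhb over Pdha1, Idh3a over Idh3b), against the day of differentiation, with points for libraries and lines through group means. The knockdown and scrambled libraries start close in the 2 subunit pairs, and from day 6 on every knockdown ratio in the 3 panels lies below every scrambled ratio of its day.

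Among the TCA cycle enzymes, 4 of the 5 were lower in knockdown cells on average, against 13.2% of all tested genes. These were Idh3a (-1.02, SE 0.30, limma adjusted p = 0.0219), Mdh2 (-0.70, SE 0.21, adjusted p = 0.0215), Cs (-0.66, SE 0.22, adjusted p = 0.0367) and Fh1 (-0.59, SE 0.18, adjusted p = 0.0272). Ogdh was at -0.43 (SE 0.19, adjusted p = 0.110), not called, also not with the block (adjusted p = 0.0594). The calls of Idh3a and Mdh2 held in 20 of 20 fits that left out 1 library, those of Fh1 in 16 and of Cs in 12. Without the 3 late scrambled libraries numbered 2 all 4 were still called by limma, at -0.45, -0.31, -0.24 and -0.24 for Idh3a, Mdh2, Cs and Fh1.

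Idh3a (ENSMUSG00000032279.9, chr9:54586334-54604661, plus strand) encodes the catalytic alpha subunit of the NAD-linked isocitrate dehydrogenase, which makes 2-oxoglutarate. In knockdown libraries it had 38.0 and 41.3 RPM on day 0, 52.4 and 59.2 RPM on day 2, 56.5 and 79.3 RPM on day 4, 58.7 and 92.7 RPM on day 6, and 45.2 and 58.5 RPM on day 8. In scrambled libraries it had 34.1 and 36.6 RPM on day 0, 83.2 and 121 RPM on day 2, 81.5 and 282 RPM on day 4, 147 and 373 RPM on day 6, and 80.2 and 318 RPM on day 8. The knockdown libraries were higher at day 0 and lower on each later day, at 54.7% of the scrambled mean by day 2 and 26.1% at day 8. With the mean of both knockdown libraries set against scrambled library 1 alone, these shares were 67.1% and 64.7%. Between libraries numbered 1 they were 63.0% and 56.4%, and between those numbered 2 they were 48.9% and 18.4%. Idh3b and Idh3g encode its partner subunits. The ratio of Idh3a to Idh3b reads was 0.354 and 0.426 in knockdown libraries and 0.335 and 0.425 in scrambled libraries at day 0. At day 2 it was 0.620 and 0.690 in knockdown libraries, against 0.953 and 1.22 in scrambled libraries, and at day 8 0.439 and 0.521, against 0.619 and 1.15. The ratio to Idh3g at day 2 was 0.835 and 0.886 in knockdown libraries, against 1.23 and 1.65 in scrambled libraries.

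Citrate synthase joins acetyl-CoA to oxaloacetate at the entry of the cycle. Cs (ENSMUSG00000005683.7, chr10:128337734-128362479, plus strand) had 192 and 171 RPM on day 0, 209 and 204 RPM on day 2, 227 and 274 RPM on day 4, 248 and 334 RPM on day 6, and 209 and 243 RPM on day 8 in knockdown libraries. In scrambled libraries Cs had 193 and 174 RPM on day 0, 239 and 241 RPM on day 2, 289 and 567 RPM on day 4, 425 and 988 RPM on day 6, and 296 and 794 RPM on day 8. The groups overlapped at day 0, and knockdown libraries were below scrambled ones on each later day. Reads assigned to its near-copy Csl made up 3.46% to 4.49% of Cs reads in every library, so a small part of the counts is of uncertain origin.

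Mdh2, the mitochondrial enzyme that regenerates oxaloacetate from malate (ENSMUSG00000019179.6, chr5:135778480-135790398, plus strand), had 167 and 139 RPM on day 0, 194 and 194 RPM on day 2, 185 and 228 RPM on day 4, 212 and 263 RPM on day 6, and 167 and 187 RPM on day 8 in knockdown libraries. In scrambled libraries Mdh2 had 157 and 128 RPM on day 0, 259 and 286 RPM on day 2, 263 and 533 RPM on day 4, 379 and 760.3 RPM on day 6, and 224 and 567 RPM on day 8. Its groups, too, overlapped only at day 0. Fh1, which hydrates fumarate to malate (ENSMUSG00000026526.7, chr1:175600374-175625635, minus strand), had 47.4 and 46.5 RPM on day 0, 56.7 and 59.5 RPM on day 2, 57.7 and 75.4 RPM on day 4, 65.1 and 82.7 RPM on day 6, and 52.7 and 60.9 RPM on day 8 in knockdown libraries. In scrambled libraries Fh1 had 46.0 and 43.4 RPM on day 0, 72.3 and 84.2 RPM on day 2, 77.5 and 154 RPM on day 4, 107 and 209 RPM on day 6, and 69.8 and 154 RPM on day 8. Knockdown libraries were slightly above scrambled ones at day 0 and below them on the other 4 days.

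Ogdh, the first enzyme of the complex that turns 2-oxoglutarate into succinyl-CoA (ENSMUSG00000020456.10, chr11:6291633-6356642, plus strand), had 85.1 and 86.4 RPM on day 0, 124 and 123 RPM on day 2, 107 and 136 RPM on day 4, 111 and 142 RPM on day 6, and 95.8 and 109 RPM on day 8 in knockdown libraries. In scrambled libraries Ogdh had 67.7 and 80.3 RPM on day 0, 119 and 147 RPM on day 2, 126 and 224 RPM on day 4, 172 and 375 RPM on day 6, and 114 and 242 RPM on day 8. Groups overlapped at days 2 and 4, knockdown libraries were higher at day 0, and they were lower at days 6 and 8. Dlst encodes its E2 partner. The ratio of Dlst to Ogdh reads was 1.04 and 1.000 in knockdown libraries at day 0, against 1.57 and 1.26 in scrambled libraries. At day 2 it was 0.862 and 0.880 in knockdown libraries, against 1.20 and 1.12 in scrambled libraries, and at day 8 0.934 and 1.15, against 1.15 and 1.22. The arms were apart at days 0, 2 and 4 and overlapped at days 6 and 8.

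Day by day over the 9 genes, the share of the scrambled mean left in knockdown cells had a median of 108% on day 0, 76.6% on day 2, 55.7% on day 4, 41.7% on day 6 and 44.8% on day 8. Both knockdown libraries were below both scrambled libraries for 2, 8, 5, 9 and 8 of the 9 genes at days 0, 2, 4, 6 and 8. The share of all tested genes that did so was 14.6%, 24.3%, 21.7%, 25.2% and 21.4%. Against this, scrambled library 2 alone held 1.75 to 3.96 times the level of scrambled library 1 at day 8 over the 9 genes, and knockdown library 2 held 1.12 to 1.62 times that of knockdown library 1. The mean of both knockdown libraries was also set against scrambled library 1 alone. The median share was then 102% on day 0, 83.0% on day 2, 86.5% on day 4, 68.4% on day 6 and 79.0% on day 8. At day 2, where scrambled library 2 held 1.01 to 1.46 times the level of scrambled library 1, the knockdown level of the set lay between 45.4% (Pcx) and 92.9% (Ogdh) of the scrambled mean.

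How many genes of the set were called higher during differentiation depended on the fit. In scrambled cells, 6 of the 9 genes were higher at day 4 than at day 0 by limma voom, against 6.64% of all genes called higher: Pcx, Idh3a (log2 2.16), Pdhb (1.88), Mdh2 (1.46), Fh1 (1.35) and Pdha1 (1.06), with adjusted p-values of 0.0409 to 0.0485 for the last 5. Ogdh (1.25), Cs (1.21) and Dlat (1.11) were not called. At day 8 it was 3 of 9 (Pcx, Idh3a at 2.21 and Pdhb at 1.99), against 5.55% of all genes. With the replicate block over the days all 9 were higher at both days, where 30.8% and 27.5% of all genes were called in either direction at days 4 and 8. That block gives each library number the same offset on all days. The adipocyte marker sum of scrambled library 2 was 0.876 times that of scrambled library 1 at day 0 and 4.41 times at day 8. Without a filter on low counts 1 of 9, Pcx, was higher at day 4 and at day 8, against 3.53% and 3.24% of all genes. Of the 20 fits that left out 1 library, 14 at day 4 and 15 at day 8 called 1 gene, Pcx, and the others called 2 to 9 at day 4 and 6 to 9 at day 8.

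In knockdown cells 1 of the 9 genes, Pcx, was called higher at day 4, against 2.1% of all genes, and at day 8, against 0.527%. Without a filter none was called at day 8 by limma voom, against 0.332% of all genes, and leaving out 1 library ended the day-8 call in 4 of 20 fits. With the block Pcx was called on both days, where 7.3% and 2.74% of all genes were called in either direction. Leaving out the 3 late scrambled libraries numbered 2 gave 5 of 9 at day 4, against 5.59% of all genes called higher. The folds of the other 8 genes over day 0 had a median of 1.32 on day 2, 1.42 on day 4, 1.56 on day 6 and 1.23 on day 8 in knockdown cells. In scrambled cells that median was 1.86 on day 2, 2.48 on day 4, 3.78 on day 6 and 2.64 on day 8. The difference between the arms in the change from day 0 to day 8 was called by limma voom for 0 of the 9 genes and for 0 of all 16497 genes (0%). At an unadjusted p under 0.05, 0 of the 9 and 765 of all genes (4.64%) passed, and the block gave 0 calls as well. Its values ran from -1.81 (SE 0.92) for Idh3a to -0.42 (SE 0.45) for Pdha1, so the later onset of the difference in these 8 genes was not established by a test.

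The rest of the pathway was read from lists of 34 further genes, of which 32 passed the filter on low counts. Of these 32, 19 were lower in knockdown cells on average, 1 was higher and 12 were not called by limma, with a median of -0.49, against -0.0028 over all tested genes. In that fit 13.2% of all genes were called lower and 12.3% higher. With the block 24 were lower, against 18.8% of all genes. Without both late libraries numbered 2 of days 4, 6 and 8 it was 13, against 8.92%, without the 3 scrambled ones 11, against 10.5%, and without day 8 it was 9, against 7%. In each of these fits 1 was higher.

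On average, with 13.2% of all genes called lower, both subunits of the mitochondrial pyruvate carrier, the gate through which pyruvate enters, were lower. They are listed under their older names Brp44 (Mpc2) and Brp44l (Mpc1). Brp44 was lower by 0.83 (SE 0.19, limma adjusted p = 0.00419) and Brp44l by 0.73 (SE 0.18, adjusted p = 0.00861). At day 2 Brp44l had 26.7 and 27.0 RPM in knockdown libraries, against 38.4 and 47.1 RPM in scrambled libraries, and at day 8 23.6 and 27.7 RPM, against 36.9 and 96.7 RPM. Both remaining subunits of the dehydrogenase complex were lower as well, the E3 gene Dld by 0.88 and the E3-binding Pdhx by 0.76. The kinases that switch the complex off were split, with Pdk2 lower by 0.47, Pdk4 higher by 0.26 and Pdk1 and Pdk3 not called. Pdk4 had 22.9 and 24.2 RPM in knockdown libraries at day 8, against 16.5 and 22.6 RPM in scrambled libraries. Of the phosphatases that switch it on, Pdp2 was lower by 0.52 and the regulatory subunit Pdpr by 0.34, and Pdp1 was not called (0.29).

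Within the cycle, 7 of the 10 other subunits listed were lower on average, against 13.2% of all tested genes. The 4 with the smallest adjusted p-values were Dlst (-0.70), the E2 of the oxoglutarate complex, the succinyl-CoA ligase genes Suclg1 (-0.66) and Suclg2 (-0.43), and Sdhc (-0.51), a membrane anchor of succinate dehydrogenase. Dlst had 89.5 and 126 RPM in knockdown libraries at day 8, against 131 and 295 RPM in scrambled libraries. On the cytosolic side, where citrate is used, 3 of 6 genes were lower, against the same 13.2%. These were the NADP-linked Idh1 (-0.68), the cytosolic aconitase Aco1 (-0.83) and the cytosolic malate dehydrogenase Mdh1 (-0.81). The citrate carrier Slc25a1 (-0.59), the malic enzyme Me1 (-0.39) and Acly (-0.11, limma adjusted p = 0.493) were not called. Acly had 207 and 232 RPM in knockdown libraries at day 8, against 279 and 360.1 RPM in scrambled libraries.

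**Figure D4:**
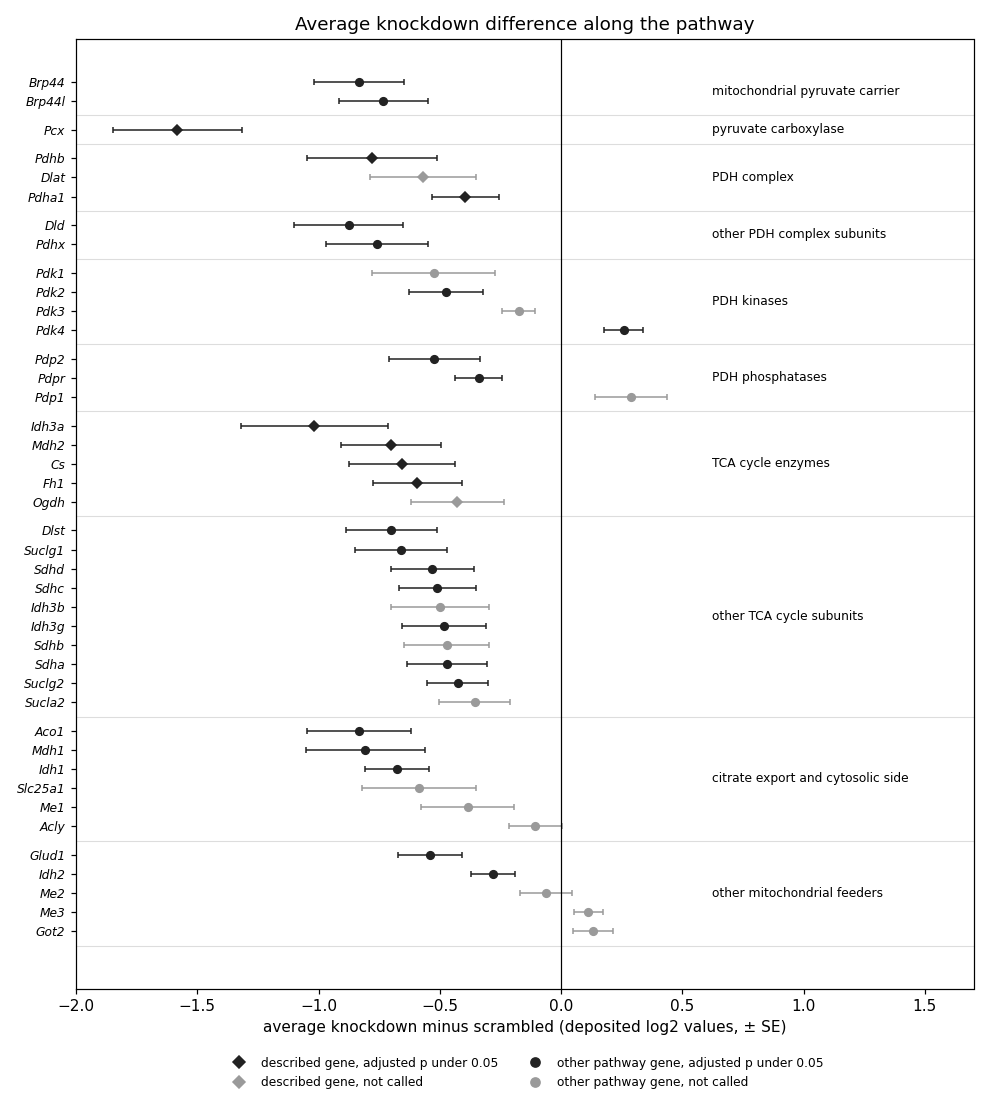
Average knockdown minus scrambled difference over the 5 days, in deposited log2 values with bars of 1 SE, for the 9 genes (diamonds) and the 32 tested genes of the pathway lists (circles), grouped by role; dark symbols had an adjusted p under 0.05 and grey ones did not. Pcx lies farthest to the left, at -1.58, and Pdk4 is the only dark symbol to the right of 0.

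Markers of the adipocyte state were also lower in knockdown cells on average. The sum of these markers was lower already at day 0, when the median share of the 9 genes was 108% of the scrambled mean. By limma, which called 13.2% of all genes lower on average and 25.4% in either direction, all 10 adipocyte markers were lower in knockdown cells. Their sum was 488 and 359 RPM in knockdown libraries and 692 and 606 RPM in scrambled libraries at day 0, 1159 and 981 RPM and 1411 and 1784 RPM at day 2, and 2496 and 4025 RPM and 6353 and 28001 RPM at day 8. Scrambled library 2 of day 8 had 4.41 times the marker sum of scrambled library 1, beside 1.75 to 3.96 times the level of the 9 genes. Of 10 fibroblast and preadipocyte markers 7 were higher and 1 lower, with a sum at day 8 of 37273 and 35514 RPM in knockdown libraries, against 29823 and 17812 RPM in scrambled libraries. All 10 interferon response genes were higher, with a sum of 569 and 1531 RPM in knockdown libraries at day 0, against 189 and 317 RPM in scrambled libraries, and of 1025 and 1857 RPM, against 388 and 281 RPM, at day 8. The part of these markers in the lower levels of the 9 genes was not tested.

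As a description over the 20 libraries, which share arm, day and depth, the profiles of the 9 genes in log2(RPM + 1) correlated with each other at a Pearson r of 0.735 (Pcx and Dlat) to 0.994 (Fh1 and Mdh2), with a median of 0.956. Pcx followed the mean profile of the set least (0.884) and Fh1 most (0.995). With that mean profile Pparg, the nuclear receptor that drives adipogenesis, had an r of 0.960, Fabp4 0.798 and Adipoq 0.717. No correlation with it was computed for the other adipocyte markers. Among 8240 genes above the median level, those most alike included Atp5b (0.995) of the ATP synthase, the electron transfer flavoprotein dehydrogenase Etfdh (0.988), cytochrome c (Cycs, 0.987) and a predicted gene listed as Gm10121 (0.987).

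In the authors' deposited table, which compares the arms within each day, Pcx had an adjusted p under 0.05 at all 5 days, with log2 fold changes of -0.64, -1.02, -1.29, -1.79 and -1.95 at days 0 to 8. The number of the 9 genes with an adjusted p under 0.05 in the authors' deposited table was 1, 3, 1, 5 and 2 at days 0, 2, 4, 6 and 8, all lower in knockdown cells. The authors' deposited table gave Idh3a a log2 fold change of -0.74 (adjusted p = 0.00115) and Mdh2 one of -0.44 (adjusted p = 0.0379) at day 2, and no gene of the set with a positive fold change after day 0.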

How the data were processed

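The authors deposited variance-stabilised log2 values per library, 1 table per day, each normalised alone. They also deposited a mean signal per gene, which is its mean normalised count, then a log2 fold change, its standard error, their ratio as a test score, and the p-value before and after adjustment. Per the submitters' processing notes, TopHat2 2.0.13, Bowtie2 2.2.3.0, SAMtools and DESeq2 1.10.1 were used with mm9. TruSeq V2 was the library kit, per the labels. Which counter and annotation were used is not given in the sources used here. Every per-library column was used (0 unused).

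Reads were recovered by inverting the transformation. All low values, checked up to 100 reads, came within 0.02 of a whole number. Totals were 20153362 to 33973608 reads, and intervals on single values would cover counting error only. RPM are recovered reads scaled by the library total. Tested genes had to reach a mean normalised count of 10 in 1 or more tables (16497, all 9 described genes included).

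Knockdown differences came from limma (version 3.58.1, with R 4.3.3 and statmod 1.5.0) on deposited log2 values, with trend and robust spread. Days were compared with limma voom on recovered reads with median-of-ratios size factors. The fits had 10 residual degrees of freedom with 10 group means, and 14 for the average, with day as a factor. The average treats an arm's libraries as independent, although they may come from 1 cell population. Benjamini-Hochberg adjustment ran over all tested genes, called at 0.05. Fits were also run on simulated counts with the same dispersion for all genes and libraries. These had no paired libraries and no wider late scrambled spread, so they cannot show how the fits deal with either.

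Within a day, the deviations of libraries with the same number in the 2 arms correlated (0.783, 0.702, 0.551, 0.537 and 0.468 from day 0 to day 8), so the numbers were taken to pair the libraries. Pairing was read from the data, since the labels name no shared culture. Blocking on the replicate number within day left 5 residual degrees of freedom, and over days 9. Both blocks give a library number the same offset in the 2 arms. The correlations are within a day, so they do not show that the same offset holds over days.

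Members and lists were chosen with earlier results of these data known. Named beside the 9 genes were up to 4 called genes per pathway list with the smallest adjusted p in the average, Tcf7l2, and the 5 genes with the most similar profile (1 gene is not reported here); Slc25a1, Me1, Acly, Pdk1, Pdk3, Pdp1, the feeders not called and the subunits used in ratios were named after their values were seen. Gene positions are from GENCODE M21 (GRCm38), not the build of the reads.

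Alternatives were no filter, a filter at 50, median centring, library totals as scaling, no trend and no robust estimation, recovered reads for the knockdown tests, each day table alone, the replicate block, leaving out each library, and leaving out late libraries.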

Additional observations from a re-analysis of the deposited data

Results flagged for a closer look

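On day 0, before induction, 5 of the 9 genes stood on the other side from later days. Both knockdown libraries were above both scrambled libraries, with a knockdown mean of 110% of the scrambled mean for Pdhb, 108% for Dlat, 112% for Idh3a, 116% for Ogdh and 105% for Fh1, while both knockdown libraries were below both scrambled libraries on some or all later days. Of all tested genes, 18.9% had both knockdown libraries above both scrambled libraries on day 0. None of the 5 differences on day 0 was called (limma adjusted p = 1). The opposite directions by themselves are not a test, and the change of the knockdown difference between day 8 and day 0 was called for none of them (limma voom adjusted p = 0.835 for each).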

How the results depend on the processing

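The number of the 9 genes called depended on the fit. At day 0 it was 0 in every fit run. At day 2 it was 0, and 1 with the day table alone (0.491% of all genes lower) or without both late libraries numbered 2 (0.249%). At day 4 it was 0, and 1 with the replicate block (1.07%). At day 6 it was 0, 8 with the replicate block (8.7%), 3 without both late libraries numbered 2 (2.14%) and 1 without the 3 late scrambled ones (2.22%). At day 8 it was 1, 4 with the replicate block (8.87%), and 0 with the day table alone (0%) or without the 3 late scrambled libraries (1.38%). For the average it was 7, and 1 without the libraries of day 8 (7%). For knockdown cells against day 0 it was 1 at day 4 (5 without the 3 late scrambled libraries, 5.59% of all genes higher) and 1 at day 8 (0 without a filter, 0.332%). For scrambled cells it was 6 at day 4 (1 without a filter, 3.53%) and 3 at day 8 (1 without a filter, 3.24%, 9 with the replicate block, 13.9%, and 5 with library totals, 6.04%). Leaving out 1 library gave 0 to 0 at days 0, 2 and 4, 0 to 8 at days 6 and 8, 3 to 8 for the average, 1 to 1 and 0 to 1 in knockdown cells at days 4 and 8, 1 to 9 at both days in scrambled cells, and 0 to 0 for the change of the difference. The cause of these shifts was not tested. The day-6 and day-8 counts reached 8 without scrambled library 1 of the same day. Apart from the calls named here and beside the results, the block changed no call of the 9 genes. For single genes, 2612 alternative values kept direction and call, 196 lost the call, 91 gained it and 11 changed sign, none of the last called. Signs changed for Dlat in knockdown cells against day 0, at -0.0066 (day 4) and -0.020 (day 8) without both late libraries numbered 2, and for the change of the difference of Pdha1, at 0.052 without the 3 late scrambled libraries. Leaving out 1 library gave -0.0033 to 0.59 and -0.031 to 0.19 for these values of Dlat, -0.90 to 0.049 for Pdha1, -0.12 to 0.050 for Cs at day 0 (0.018 in another fit), -0.050 to 0.21 for Mdh2 at day 0 (-0.046 in another fit) and -0.24 to 0.078 for Ogdh at day 2. Each of the 9 genes had at least 687 reads in every library, and each group had 2 libraries.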

Other observations

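Of 7 listed genes that feed the cycle from other sources, 5 were tested. Glud1, which turns glutamate into 2-oxoglutarate, was lower in knockdown cells on average by 0.54 (SE 0.13, limma adjusted p = 0.00782), and the NADP-linked mitochondrial Idh2 by 0.28 (SE 0.09, adjusted p = 0.0317). Unlike the cycle genes, Glud1 was highest at day 2, with 338 and 391 RPM in knockdown libraries, against 585 and 748 RPM in scrambled libraries. At day 8 it had 181 and 222 RPM in knockdown libraries, against 195 and 274 RPM in scrambled libraries, and the groups overlapped. Idh2 had 148 and 147 RPM in knockdown libraries at day 8, against 169.8 and 175 RPM in scrambled libraries. The aminotransferase gene Got2 (0.13) and the malic enzymes Me2 (-0.06) and Me3 (0.11) were not called. Got2 stood at 145% of the scrambled mean at day 8, at 116% between libraries numbered 1 and 188% between those numbered 2.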
